A study of Mus musculus with 7 samples.

Results

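The genes described here are 10 mouse CC chemokines that attract monocytes, macrophages and eosinophils: Ccl2, Ccl3, Ccl4, Ccl6, Ccl7, Ccl8, Ccl9, Ccl11, Ccl12 and Ccl24. They were taken by symbol from a table of read counts for 24421 genes, each had 1 row in it, and all 10 passed the filter on low counts that left 13545 genes for testing. Polyadenylated RNA had been sequenced from 7 tumours of separately named mice at week 4. Of these mice, 4 received anti-Lair1 with anti-PD-1 and 3 received anti-KLH with anti-PD-1, so PD-1 blockade, which acts on an inhibitory receptor of T cells, was common to all. Lair1 is an inhibitory receptor of leukocytes that binds collagen, and anti-KLH is labelled as the control antibody. The study text describes 344SQ cells, a lung cancer line from K-rasLA1/+p53R172H∆g/+ mice, grown under the skin of immunocompetent 129/Sv mice aged 6 to 8 weeks, with doses of 10 mg/kg for anti-LAIR and 8 mg/kg for anti-PD-1. It also describes KrasLSL-G12D/p53fl/fl mice given adenovirus-cre in the airways at 3 to 4 months of age and treated 2 months later. The sources used here do not say which model these 7 tumours came from, nor the sex and age of each mouse. The names of the anti-Lair1 mice share a prefix that no anti-KLH mouse has, so whatever that prefix stands for cannot be told apart from the treatment. Levels are given as CPM, the reads of a gene relative to the scaled total of its library. Keratin genes of epithelial tumour cells were abundant in both groups (Krt8 at 701 ± 71.4 CPM with anti-Lair1 and 642 ± 164 CPM with anti-KLH, SD, n = 4 and n = 3), while Sftpc, a gene of lung alveolar cells, was at 0.219 ± 0.211 CPM with anti-Lair1 and 0.208 ± 0.277 CPM with anti-KLH (SD).

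Chemokines are small secreted proteins that bind G protein-coupled receptors and direct the migration of leukocytes, and the CC class is named for a pair of adjacent cysteines. Ccl2, Ccl7 and Ccl12 bind Ccr2 on monocytes, Ccl8 in the mouse acts through Ccr8, and Ccl11 and Ccl24, the eotaxins, bind Ccr3 on eosinophils. Ccl3, Ccl6 and Ccl9 bind Ccr1 on monocytes, macrophages and neutrophils. In tumours, ligands of Ccr2 are known for drawing in monocytes that become macrophages.

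All 10 chemokines had a higher fitted level with anti-Lair1 than with anti-KLH, against 49.1% of all genes tested, and the differences were very unequal in size. Ccl8 was 3.70-fold higher and Ccl24 3.46-fold higher, Ccl12 was 1.83-fold higher, and Ccl6 and Ccl9, which held most of the family's counts, were 1.08-fold and 1.12-fold higher. None of the 10 passed an adjusted p of 0.05 in edgeR's quasi-likelihood test, in which 0 of 13545 genes (0%) did. At an unadjusted p under 0.05, edgeR had 3 of the 10 (Ccl8, Ccl12 and Ccl24), all higher with anti-Lair1, where 3.51% of all genes tested were past it in that direction and 5.15% in either. The levels of 4 of the 10 did not overlap between the groups (Ccl4, Ccl8, Ccl12 and Ccl24), all higher, against 3.06% of all genes tested that were separated in that direction, 2.52% in the other and 5.58% in either. DESeq2 called 47 genes (0.329% of those it adjusted), 1 of which, Ccl8, was a chemokine of this set, and limma-voom called 0 (0%). The median log2 fold change was 0.61 over the 10 chemokines and -0.0028 over all genes tested. The 10 values come from the same 7 tumours and are not independent of one another. The 10 genes, and the gene lists used below, were chosen with earlier results of these data known. Counts set against the shares of all genes tested are therefore descriptive and no test of a set. In bulk tumour RNA, fewer cells of a type and less RNA per cell cannot be told apart.

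**Figure D1:**
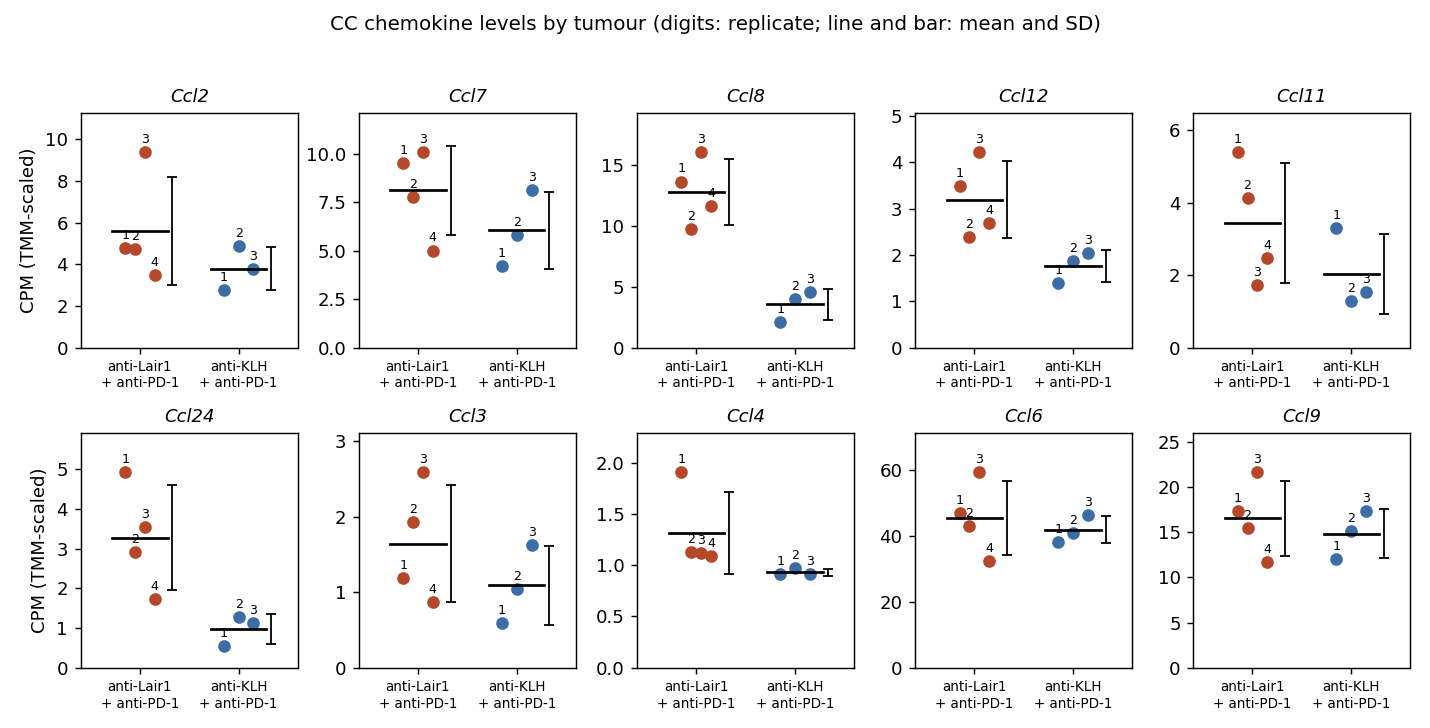
Level of each chemokine in each tumour, in CPM on a linear axis from 0, with anti-Lair1 tumours on the left and anti-KLH tumours on the right of each panel; digits are replicate numbers, lines are means and bars SDs. Ccl8 lies between 9.70 and 16.0 CPM in all 4 anti-Lair1 tumours and between 2.10 and 4.58 CPM in the 3 anti-KLH tumours, while Ccl6 and Ccl9 overlap.

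On GRCm38, 9 of the 10 genes lie on chromosome 11 in a pair of clusters. Ccl2 (82035577 to 82037452), Ccl7 (82045712 to 82047525), Ccl11 (82057832 to 82062955), Ccl12 (82101845 to 82103399) and Ccl8 (82115185 to 82116799) follow each other on the plus strand over 81.2 kb, with no other protein-coding gene between them. Ccl9 (83572917 to 83578636), Ccl6 (83587886 to 83593087) and Ccl3 (83647843 to 83649378) lie on the minus strand of the second cluster, which ends with Ccl4 (83648624 to 83664683) on the plus strand and spans 91.8 kb. Ccl24 lies alone on chromosome 5 (135569935 to 135573123, minus strand). The 5 genes of the first cluster had log2 fold changes from 0.44 (Ccl7) to 1.89 (Ccl8), and the 4 of the second from 0.12 (Ccl6) to 0.65 (Ccl3). Of the 50-base stretches in the annotated transcripts of these genes, 0% were shared with transcripts of another gene, except in Ccl9, where 1.97% were. Ccl2 and Ccl6 each overlap a non-coding gene on the opposite strand, and Ccl3 and Ccl4 overlap each other on opposite strands in the RefSeq table. The libraries were directional, but the sources used here do not say whether the counting used strand, so reads in these overlaps may be assigned to either partner.

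Promoter windows, from 250 bases before to 50 bases after the annotated start, were at hand from RefSeq (GRCm38.p6) for 5 of the 10 genes. Those of Ccl12 and Ccl8 are printed because these neighbours had the highest fold changes of the first cluster, and that of Ccl9 as an example from the second cluster whose own groups overlapped. Capitals mark matches to TATAAA, the AP-1 motif TGANTCA, the kappaB motif, the interferon-stimulated response element and the STAT motif TTCNNNGAA, all searched on both strands.
Ccl12, chr11:82101595-82101894, plus strand: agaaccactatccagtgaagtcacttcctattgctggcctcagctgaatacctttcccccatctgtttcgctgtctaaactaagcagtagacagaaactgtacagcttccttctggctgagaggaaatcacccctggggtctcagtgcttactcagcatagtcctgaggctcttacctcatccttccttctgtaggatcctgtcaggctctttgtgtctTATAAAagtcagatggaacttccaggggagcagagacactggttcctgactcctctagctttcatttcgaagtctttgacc
Ccl8, chr11:82114935-82115234, plus strand: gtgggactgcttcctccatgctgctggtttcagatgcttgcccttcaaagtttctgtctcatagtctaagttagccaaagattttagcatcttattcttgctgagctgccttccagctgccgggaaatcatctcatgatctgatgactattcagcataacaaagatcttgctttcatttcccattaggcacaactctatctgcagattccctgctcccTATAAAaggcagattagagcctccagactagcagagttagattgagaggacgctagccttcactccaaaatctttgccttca
Ccl9, chr11:83578587-83578886, minus strand: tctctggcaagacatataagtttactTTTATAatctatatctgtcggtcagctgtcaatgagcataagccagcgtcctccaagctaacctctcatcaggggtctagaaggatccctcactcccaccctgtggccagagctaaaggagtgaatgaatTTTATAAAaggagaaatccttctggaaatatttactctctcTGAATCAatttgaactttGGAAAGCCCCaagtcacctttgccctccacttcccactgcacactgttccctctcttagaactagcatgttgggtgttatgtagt
In Ccl12 and Ccl8 the only match was a TATAAA, beginning 31 and 32 bases before the start. The Ccl9 window held TATAAA or its reverse complement at 3 positions, a pair of which overlap each other, and 1 AP-1 and 1 kappaB match. The windows of Ccl3 and Ccl6, also of the second cluster and not printed, held no match, so Ccl9 does not stand for its cluster. TATAAA was thus found in 3 of the 5 windows, and the AP-1 and kappaB motifs in 1 each. TATAAA occurred in 13.6% of all 32851 windows of this length, the AP-1 motif in 7.81%, the kappaB motif in 8.46%, the STAT motif in 8.30% and the interferon-stimulated response element in 3.44%. The last pair had no match in the 5 windows, which says only that these letters were absent from them.

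Among the monocyte chemokines of the first cluster, Ccl8 (monocyte chemoattractant protein 2) stood apart. It was at 13.6, 9.70, 16.0 and 11.6 CPM in anti-Lair1 replicates 1 to 4, against 2.10, 3.96 and 4.58 CPM in anti-KLH replicates 1 to 3. Every anti-Lair1 tumour was above every anti-KLH tumour, and the gap between the groups was wider than the range of the anti-KLH tumours. These values rest on 146 to 207 reads per anti-Lair1 library and 45 to 53 per anti-KLH library. The fitted difference was 1.89 ± 0.29 (log2 fold change ± SE), and its p ranked 2 among all genes tested (edgeR adjusted p = 0.540). DESeq2 gave the same difference an adjusted p of 5.29e-06, and over all alternatives to the main fit the adjusted p of Ccl8 ran from 5.29e-06 to 1.00.

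Ccl12 (monocyte chemoattractant protein 5 of the mouse) was at 3.49, 2.39, 4.23 and 2.69 CPM in anti-Lair1 replicates 1 to 4, against 1.39, 1.87 and 2.03 CPM in anti-KLH replicates 1 to 3. The groups did not overlap, but the lowest anti-Lair1 tumour and the highest anti-KLH tumour were close. Ccl12 had 36 to 53 reads per anti-Lair1 library and 20 to 35 per anti-KLH library. The fitted difference was 0.87 ± 0.32 (log2 fold change ± SE, edgeR adjusted p = 0.933). The unadjusted p of Ccl12 was no longer under 0.05 without anti-Lair1 replicate 3 or without anti-KLH replicate 1, where the log2 fold change was 0.72 and 0.70, and the adjusted p ran from 0.649 to 1.00 over all alternatives.

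Ccl2 (monocyte chemoattractant protein 1), the best known ligand of Ccr2, was at 4.80, 4.72, 9.40 and 3.48 CPM in anti-Lair1 replicates 1 to 4, against 2.77, 4.86 and 3.76 CPM in anti-KLH replicates 1 to 3. Apart from anti-Lair1 replicate 3, which was the highest, the anti-Lair1 tumours lay within the range of the anti-KLH tumours. The log2 fold change of Ccl2 was 0.57 ± 0.36 (SE, edgeR adjusted p = 1.00), and it was 0.20 without anti-Lair1 replicate 3. Ccl7 (monocyte chemoattractant protein 3) was at 9.54, 7.78, 10.1 and 5.01 CPM in anti-Lair1 replicates 1 to 4, against 4.19, 5.83 and 8.14 CPM in anti-KLH replicates 1 to 3. The groups overlapped, and the fitted log2 fold change was 0.44 ± 0.30 (SE, edgeR adjusted p = 1.00). It was 0.22 without anti-KLH replicate 1 and 0.70 without anti-KLH replicate 3.

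Within each tumour, Ccl8 could be set against its neighbours without regard to library scaling. There were 2.84, 2.06, 1.71 and 3.33 Ccl8 reads per Ccl2 read in anti-Lair1 replicates 1 to 4, against 0.757, 0.815 and 1.22 in anti-KLH replicates 1 to 3. Against Ccl7, the ratios were between 1.25 and 2.32 with anti-Lair1 and between 0.500 and 0.679 with anti-KLH. Neither ratio overlapped between the groups, and both were higher with anti-Lair1. These ratios use the same reads as the levels above and are not a separate result.

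The eotaxins differed in how clearly they separated. Ccl24 (eotaxin 2) was at 4.93, 2.92, 3.54 and 1.74 CPM in anti-Lair1 replicates 1 to 4, against 0.554, 1.27 and 1.12 CPM in anti-KLH replicates 1 to 3. The groups did not overlap, on counts of 24 to 75 reads per anti-Lair1 library and 11 to 17 per anti-KLH library. The log2 fold change of Ccl24 was 1.79 ± 0.46 (SE, edgeR adjusted p = 0.640), and DESeq2 gave an adjusted p of 0.0611. Over all alternatives, the adjusted p of Ccl24 ran from 0.0611 to 1.00. Ccl11 (eotaxin 1) was at 5.40, 4.12, 1.73 and 2.47 CPM in anti-Lair1 replicates 1 to 4, against 3.28, 1.27 and 1.53 CPM in anti-KLH replicates 1 to 3. Its groups overlapped, because anti-KLH replicate 1 lay above a pair of anti-Lair1 tumours. The log2 fold change of Ccl11 was 0.72 ± 0.47 (SE, edgeR adjusted p = 1.00). Without anti-KLH replicate 1 it was 1.30 (edgeR adjusted p = 0.912), and without anti-Lair1 replicate 1 it was 0.42. There were 0.915, 0.710, 2.05 and 0.706 Ccl24 reads per Ccl11 read in anti-Lair1 replicates 1 to 4, against 0.169, 1.00 and 0.733 in anti-KLH replicates 1 to 3, and this ratio overlapped between the groups. Anti-KLH replicate 1 was at once the lowest tumour in Ccl24 and the highest of its group in Ccl11.

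Markers of eosinophils, the cells that eotaxins attract, were nearly absent from these libraries. Of 10 marker genes, Prg3, Ear1 and Ear6 had no read in any tumour, Epx (eosinophil peroxidase) had 1 read and Prg2 (major basic protein) 4 reads in all 7 libraries together, and 9 of the 10 were too low to be tested with edgeR. Siglecf, a surface marker of mouse eosinophils, had 2 to 3 reads in each anti-Lair1 library and 0 to 1 in each anti-KLH library. The eotaxin receptor Ccr3 had 14 reads over all 7 libraries. The tested marker was Il5ra, a subunit of the interleukin 5 receptor, at 2.19 to 4.49 CPM in the anti-Lair1 tumours, against 0.475, 2.09 and 2.14 CPM in anti-KLH replicates 1 to 3. Its groups did not overlap by a narrow margin, and the fitted log2 fold change was 1.01 ± 0.51 (SE, edgeR adjusted p = 0.980), or 0.50 without anti-KLH replicate 1. The summed level of the 10 markers was 2.92 to 5.18 CPM with anti-Lair1 and 0.593 to 2.85 CPM with anti-KLH, most of it Il5ra. Il5, a growth factor of eosinophils, had 1 read in all, whereas Il33, an epithelial and stromal cytokine of type 2 immunity, averaged 122 ± 51.1 CPM with anti-Lair1 and 139 ± 50.7 CPM with anti-KLH (SD, n = 4 and n = 3).

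Ccl3 and Ccl4, the macrophage inflammatory proteins 1 alpha and 1 beta, had the fewest reads of the set. Ccl3 was at 1.18, 1.93, 2.59 and 0.871 CPM in anti-Lair1 replicates 1 to 4, against 0.593, 1.05 and 1.63 CPM in anti-KLH replicates 1 to 3, and the groups overlapped. Its log2 fold change was 0.65 ± 0.50 (SE, edgeR adjusted p = 1.00), and it was 0.30 without anti-KLH replicate 1 and 1.02 without anti-KLH replicate 3. Ccl4 was at 1.91, 1.13, 1.12 and 1.09 CPM in anti-Lair1 replicates 1 to 4, against 0.910, 0.972 and 0.915 CPM in anti-KLH replicates 1 to 3. The groups did not overlap, but anti-Lair1 replicates 2, 3 and 4 lay close above the anti-KLH tumours, on 13 to 17 reads. Anti-Lair1 replicate 1 had 29 reads, and the anti-KLH libraries had 9 to 23. The Ccl4 log2 fold change was 0.50 ± 0.37 (SE, edgeR adjusted p = 1.00), and it was 0.26 without anti-Lair1 replicate 1.

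Ccl6 and Ccl9, ligands of Ccr1 that the mouse expresses in myeloid cells, differed least. Ccl6 was at 46.9, 42.9, 59.4 and 32.3 CPM in anti-Lair1 replicates 1 to 4, against 38.3, 41.0 and 46.5 CPM in anti-KLH replicates 1 to 3. Anti-Lair1 replicates 3 and 4 were the highest and the lowest of all 7 tumours, with the anti-KLH tumours between them. Its log2 fold change was 0.12 ± 0.18 (SE, edgeR adjusted p = 1.00) and turned to -0.040 without anti-Lair1 replicate 3, where 9 of the 10 chemokines were above 0. Ccl9 was at 17.3, 15.5, 21.7 and 11.7 CPM in anti-Lair1 replicates 1 to 4, against 12.0, 15.2 and 17.4 CPM in anti-KLH replicates 1 to 3. Its log2 fold change was 0.16 ± 0.21 (SE, edgeR adjusted p = 1.00), and it was 0.0065 without anti-Lair1 replicate 3.

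**Figure D2:**
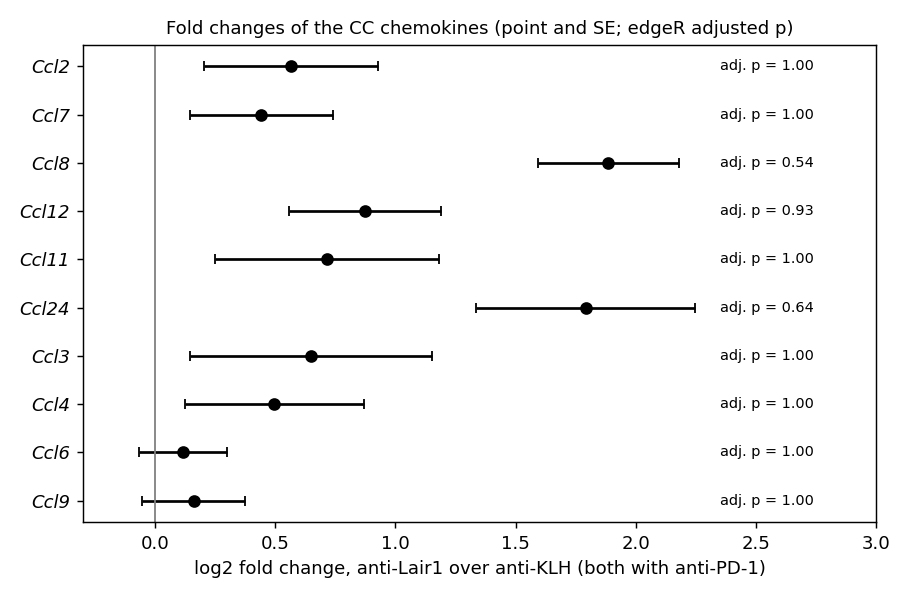
Log2 fold change of each chemokine, anti-Lair1 over anti-KLH (both with anti-PD-1), with its SE and the edgeR adjusted p. The points of Ccl8 and Ccl24 lie at 1.89 and 1.79, those of Ccl6 and Ccl9 at 0.12 and 0.16, and no adjusted p was under 0.05.

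The share of Ccl8 in the family was higher in every anti-Lair1 tumour than in any anti-KLH tumour. This share uses the same reads as the Ccl8 level and is not a separate result. Ccl8 held 12.5%, 10.4%, 12.4% and 15.9% of the reads of the 10 genes in anti-Lair1 replicates 1 to 4, against 3.17%, 5.13% and 5.23% in anti-KLH replicates 1 to 3. The closest pair of tumours was 10.4% (8.87% to 12.1%) in anti-Lair1 replicate 2 and 5.23% (3.84% to 6.93%) in anti-KLH replicate 3, with exact Clopper-Pearson 95% intervals that cover counting error only. Ccl6 and Ccl9 together held 58.9% to 62.7% of the reads with anti-Lair1 and 72.7% to 76.1% with anti-KLH. The groups did not overlap in this share either, but it is only what the other genes leave. It is therefore not a separate result, and the levels of Ccl6 and of Ccl9 overlapped. The summed level of the 10 genes did overlap, at 109, 93.1, 130 and 72.9 CPM in anti-Lair1 replicates 1 to 4, against 66.1, 77.3 and 87.6 CPM in anti-KLH replicates 1 to 3. Without Ccl6 and Ccl9, the sum was 29.0 to 48.7 CPM with anti-Lair1 and 15.8 to 23.7 CPM with anti-KLH. Single tumours marked the ends of many ranges: anti-Lair1 replicate 3 was the highest of all 7 in 7 of the 10 genes and anti-KLH replicate 1 the lowest in 7.

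**Figure D3:**
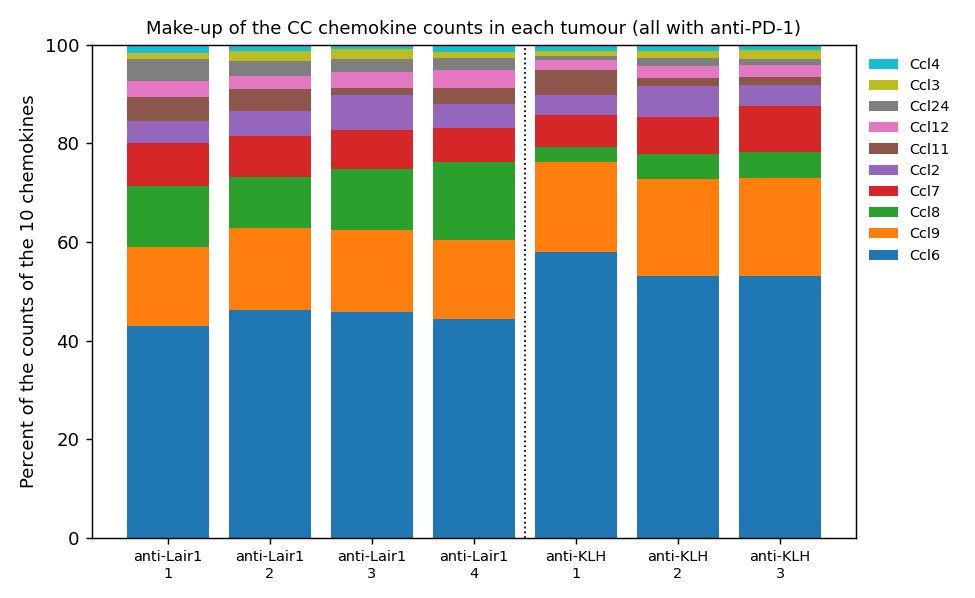
Share of each chemokine in the summed reads of the 10 genes, 1 stacked bar per tumour, with the 4 anti-Lair1 tumours left of the dotted line and the 3 anti-KLH tumours right of it (all with anti-PD-1). Ccl8 takes 10.4% to 15.9% of the bar with anti-Lair1 and 3.17% to 5.23% with anti-KLH, and Ccl6 is the largest share in all 7 tumours.

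Levels were compared between genes per kilobase of exon, with lengths from the GENCODE vM21 annotation. With anti-Lair1 the order was Ccl6 at 25.3 ± 6.25 CPM per kb and Ccl8 at 24.9 ± 5.32, then Ccl7 at 10.1 ± 2.86, Ccl12 at 5.96 ± 1.54, Ccl9 at 5.43 ± 1.36 and Ccl2 at 4.92 ± 2.29 (SD, n = 4). Below these lay Ccl11 at 3.17 ± 1.53, Ccl24 at 2.54 ± 1.03, Ccl3 at 2.14 ± 1.01 and Ccl4 at 1.99 ± 0.603 CPM per kb. Ccl6 was above Ccl8 in 2 of the 4 anti-Lair1 tumours, and the step from Ccl8 to Ccl7 was the only one between neighbours in this order whose ranges did not overlap. With anti-KLH, Ccl6 led at 23.4 ± 2.31 CPM per kb, followed by Ccl7 at 7.56 ± 2.47, Ccl8 at 6.94 ± 2.53, Ccl9 at 4.88 ± 0.892, Ccl2 at 3.34 ± 0.918 and Ccl12 at 3.28 ± 0.628 (SD, n = 3). Ccl11 at 1.87 ± 1.01, Ccl3 at 1.42 ± 0.676, Ccl4 at 1.41 ± 0.0519 and Ccl24 at 0.758 ± 0.292 CPM per kb came last. Here the ranges of neighbours did not overlap between Ccl6 and Ccl7 and between Ccl4 and Ccl24. The range of Ccl8 thus overlapped that of Ccl6 in the anti-Lair1 tumours and that of Ccl7 in the anti-KLH tumours.

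Of 7 receptors that signal for or scavenge CC chemokines, 2 had enough reads to be tested with edgeR, and both were above 0 (median log2 fold change 0.55, against -0.0028 for all genes). Ccr1, the receptor for Ccl3, Ccl6 and Ccl9, was at 20.9, 18.5, 20.1 and 19.2 CPM in anti-Lair1 replicates 1 to 4, against 13.9, 13.8 and 14.4 CPM in anti-KLH replicates 1 to 3. The groups were tight and did not overlap, and the fitted log2 fold change was 0.49 ± 0.11 (SE, edgeR adjusted p = 0.624). Ccr2, the receptor for Ccl2, Ccl7 and Ccl12, was at 6.58, 6.45, 12.3 and 25.1 CPM in anti-Lair1 replicates 1 to 4, against 5.97, 7.70 and 11.4 CPM in anti-KLH replicates 1 to 3, so a single tumour carried most of its difference. Its log2 fold change was 0.61 ± 0.51 (SE, edgeR adjusted p = 1.00), and it was 0.026 without anti-Lair1 replicate 4. Ccr8, through which mouse Ccl8 acts, had 7 reads in all 7 libraries together, at most 3 in one, and was not tested with edgeR. Ackr2, a scavenger of inflammatory CC chemokines, had 4 to 15 reads per anti-Lair1 library and 5 to 7 per anti-KLH library.

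Most other CC chemokines and inducing cytokines had few reads. Of 10 further CC chemokines 4 were tested, 2 above and 2 below 0, with a median log2 fold change of 0.18, and 0 had an unadjusted edgeR p under 0.05. Ccl17, a ligand of Ccr4 made by dendritic cells, averaged 1.92 ± 0.518 CPM with anti-Lair1 and 2.14 ± 0.709 CPM with anti-KLH, and Ccl22, another ligand of Ccr4, 1.05 ± 0.880 CPM with anti-Lair1 and 0.547 ± 0.591 CPM with anti-KLH (SD, n = 4 and n = 3). Ccl5 had 1 to 11 reads per anti-Lair1 library and 1 to 3 per anti-KLH library, too few to test with edgeR. Of the chemokines in this list that were not tested, only Ccl20 did not overlap between the groups. It had 2 to 14 reads per anti-Lair1 library and 1 in each anti-KLH library. Of 13 cytokines that induce CC chemokines or act on eosinophils, 5 were tested, 2 above and 3 below 0. Tnf averaged 0.736 ± 0.406 CPM with anti-Lair1 and 0.857 ± 0.171 CPM with anti-KLH, and Il1b 11.6 ± 2.47 CPM with anti-Lair1 and 7.41 ± 2.37 CPM with anti-KLH (SD, n = 4 and n = 3). The log2 fold change of Il1b was 0.67 ± 0.27 (SE, edgeR adjusted p = 0.944), with overlapping groups, and it was 0.40 without anti-KLH replicate 1.

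Macrophage markers were higher in every anti-Lair1 tumour as a sum. All 10 had a log2 fold change above 0, with a median log2 fold change of 0.39, against 49.1% of all genes tested that were above 0. An unadjusted edgeR p under 0.05 was found for 2 of the 10, both higher, against 3.51% of all genes tested in that direction. As the list was chosen with earlier results of these data known, these counts are no test of it. The 10 markers together were at 394 to 507 CPM with anti-Lair1 and 313 to 338 CPM with anti-KLH. Mrc1, with the highest mean of the list in both groups, was at 104 to 193 CPM with anti-Lair1 and 48.9 to 127 CPM with anti-KLH, with overlap. Only 2 of the 10 markers, Csf1r and Adgre1, did not overlap between the groups, against 3.06% of all genes tested that were separated in that direction. Csf1r, which macrophages need to survive, averaged 64.2 ± 8.18 CPM with anti-Lair1 and 42.5 ± 3.75 CPM with anti-KLH, and Adgre1, which encodes F4/80, 18.3 ± 2.81 CPM with anti-Lair1 and 11.4 ± 1.40 CPM with anti-KLH (SD, n = 4 and n = 3). The log2 fold changes were 0.60 and 0.68 (edgeR adjusted p = 0.608 and 0.624). DESeq2 gave an adjusted p of 0.00977 for Csf1r, which it thus called like Ccl8, and 0.0611 for Adgre1. Set against the mean log2 level of these 10 markers in the same tumour, Ccl8 lay between -1.48 and -0.74 with anti-Lair1 and between -3.44 and -2.20 with anti-KLH, a difference of 1.44 without overlap. The same difference was 1.18 for Ccl24 and 0.38 for Ccl12, both with overlap, and between -0.33 and 0.29 for the other 7 genes. With the macrophage level as a covariate in edgeR, the log2 fold change was 2.30 for Ccl8, 2.50 for Ccl24, 2.07 for Ccl3, 1.63 for Ccl2, 1.15 for Ccl12 and 1.07 for Ccl7, and between -0.029 and 0.69 for Ccl4, Ccl6, Ccl9 and Ccl11. Its unadjusted p was under 0.05 for Ccl2, Ccl3, Ccl8 and Ccl24 and no longer so for Ccl12. For every gene but Ccl11 this fit gave a higher value than the difference from the marker mean. The values were far apart for most of the set, including Ccl2, Ccl3, Ccl7 and Ccl24. For Ccl6 and Ccl9 the difference was -0.33 and -0.28, against 0.52 and 0.69 in the fit. The fit had 4 residual degrees of freedom, and its covariate itself did not overlap between the groups. Monocyte markers overlapped between the groups as a sum, at 318 to 382 CPM with anti-Lair1 and 324 to 340 CPM with anti-KLH. Most of this sum was Vcan, at a mean of 157 CPM with anti-Lair1 and 159 CPM with anti-KLH, and Plac8, at 102 and 91.7 CPM. The sum thus says little about the other monocyte markers. Of 7 tested, 4 were above 0, with a median log2 fold change of 0.089. Cx3cr1, a chemokine receptor of monocytes and macrophages, had the smallest p of this list, at 14.0 ± 5.66 CPM with anti-Lair1 and 7.73 ± 1.95 CPM with anti-KLH (SD, n = 4 and n = 3). Its log2 fold change was 0.84 ± 0.31 (SE, edgeR adjusted p = 0.934), and 3 of the 4 anti-Lair1 tumours were above every anti-KLH tumour. Ly6c2, a marker of inflammatory monocytes, had 4 to 29 reads with anti-Lair1 and 0 to 4 with anti-KLH, below the filter used with edgeR. In CPM it was at 0.345 to 2.10 with anti-Lair1 and 0 to 0.158 with anti-KLH, without overlap. DESeq2, which kept it, gave a log2 fold change of 3.44 and an adjusted p of 0.156.

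**Figure D4:**
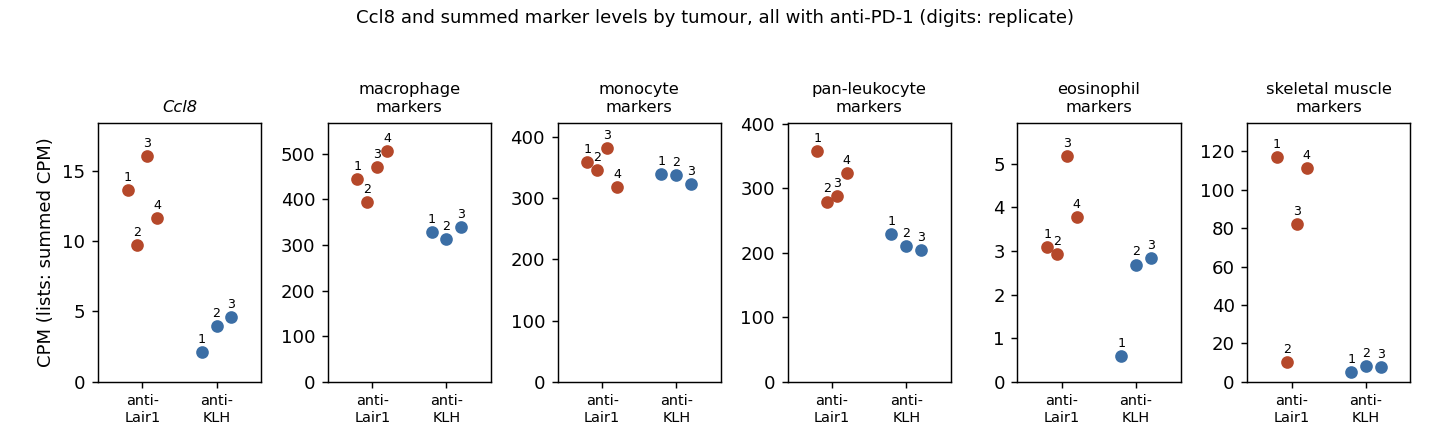
Ccl8 level and summed levels of marker lists in each tumour, in CPM on linear axes from 0, with anti-Lair1 tumours left and anti-KLH tumours right (all with anti-PD-1); digits are replicate numbers. Macrophage and pan-leukocyte sums are higher in every anti-Lair1 tumour, monocyte sums overlap, and the skeletal muscle sum is high in anti-Lair1 replicates 1, 3 and 4 only.

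The pan-leukocyte genes summed to 279 to 357 CPM with anti-Lair1 and 205 to 229 CPM with anti-KLH, and all 7 tested were above 0 (median log2 fold change 0.52). The smallest p among them was that of Lcp1, an actin-binding protein of leukocytes, at 167 ± 21.6 CPM with anti-Lair1 and 118 ± 5.79 CPM with anti-KLH (SD, n = 4 and n = 3). Lcp1 had an adjusted p of 0.624 with edgeR and 0.0260 with DESeq2. Endothelial genes summed to 145 to 172 CPM with anti-Lair1 and 109 to 141 CPM with anti-KLH, with 7 of 8 above 0, and Vwf was at 43.8 ± 6.40 CPM with anti-Lair1 and 32.9 ± 3.60 CPM with anti-KLH. These sums, like that of the macrophage markers, did not overlap between the groups. T cell genes were few in reads and summed to 5.95 to 28.2 CPM with anti-Lair1 and 2.92 to 11.5 CPM with anti-KLH, with all 4 tested above 0 and Cd4 at 1.33 ± 0.602 CPM with anti-Lair1 and 0.202 ± 0.135 CPM with anti-KLH. Mast cell genes summed to 25.2 to 37.6 CPM with anti-Lair1 and 13.8 to 29.7 CPM with anti-KLH, with 5 of 6 tested above 0 and Kit at 6.95 ± 2.26 CPM with anti-Lair1 and 4.00 ± 0.602 CPM with anti-KLH. Sums of neutrophil, fibroblast and tumour epithelial genes overlapped as well. Of the neutrophil genes, 1 of 3 tested was above 0 (median log2 fold change -0.26), of the fibroblast genes 6 of 8 (median 0.057) and of the tumour epithelial genes 6 of 7 (median 0.064). The gene with the smallest p in the neutrophil list and that in the fibroblast list lay on the other side of 0 from most of their list. Csf3r was at 6.06 ± 0.693 CPM with anti-Lair1 and 4.12 ± 2.07 CPM with anti-KLH, Col1a1 at 790 ± 173 CPM with anti-Lair1 and 990 ± 80.6 CPM with anti-KLH, and Krt19 at 646 ± 66.5 CPM with anti-Lair1 and 584 ± 135 CPM with anti-KLH.

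Skeletal muscle genes summed to 117, 10.2, 82.2 and 111 CPM in anti-Lair1 replicates 1 to 4, against 5.26, 8.37 and 7.53 CPM in anti-KLH replicates 1 to 3. The titin gene Ttn averaged 63.3 ± 39.5 CPM with anti-Lair1 and 4.43 ± 1.32 CPM with anti-KLH (SD). Its adjusted p was 0.624 with edgeR and 0.00194 with DESeq2. Anti-Lair1 replicate 2, the lowest of its group in muscle genes, was also the lowest of its group in Ccl8, at 9.70 CPM, and in Ccl12, at 2.39 CPM, and had Ccl24 at 2.92 CPM, each above every anti-KLH tumour. The muscle level used as a covariate was the mean log2 level of the 3 muscle genes tested with edgeR. It was 4.13, 0.313, 4.03 and 4.21 in anti-Lair1 replicates 1 to 4, against 0.0394, 0.464 and 0.256 in anti-KLH replicates 1 to 3. Only anti-Lair1 replicate 2 thus lay within the range of the other group, and the fit had 4 residual degrees of freedom. With the muscle level as a covariate, the log2 fold change was 1.47 for Ccl8, 1.59 for Ccl24 and 0.45 for Ccl12, and between 0.051 and 1.04 for the other 7 genes. The unadjusted edgeR p was under 0.05 for Ccl8 and Ccl24 and not for Ccl12. The part of muscle, macrophage, other leukocyte and endothelial content in the chemokine differences was not tested.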

How the data were processed

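The authors deposited raw read counts per gene symbol, 1 column per mouse. Per the labels' protocols, directional libraries of polyadenylated RNA were sequenced as single reads, and the submitters' processing notes name the build mm10 and, with no role or order, edgeR 3.40.1, featureCounts 2.0.1, STAR 2.7.6 and Trim Galore. The sources used here do not give the annotation or the strand and multi-mapping settings. Total counts were 11480651 to 15347403 in anti-Lair1 and 9879762 to 26255727 in anti-KLH libraries, where 3 reads are worth 0.119 to 0.305 CPM. No row was blank or a summary.

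Counts of all 7 libraries were fitted in R 4.3.3 with edgeR 4.0.16: filterByExpr (minimum count 10), TMM, robust quasi-likelihood test with no covariate, and Benjamini-Hochberg adjustment over 13545 genes at 0.05. CPM are TMM-scaled, log2 CPM use a prior count of 2, and an SE is the log2 fold change over the square root of its F. Differences are anti-Lair1 minus anti-KLH. Replicates are numbered in accession order. Alternatives covered scaling, filter, DESeq2 1.42.0, limma-voom 3.58.1, thinning, covariates and leaving out each library, and scripts were tested on simulated data. The 10 genes and all lists were chosen with earlier results of these data known. Named genes were the 10 chemokines, 5 receptors, 13 further genes and the gene with the smallest p of each other list. Krt8, Sftpc, Prg3, Ear1, Ear6, Vcan, Plac8, Mrc1 and Ccl20, from the lists, lie outside this rule and were named after their values were seen. One further receptor is not reported here, and the proteins of the chemokines were not analysed here. Figures were drawn with matplotlib 3.10.9.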

Additional observations from a re-analysis of the deposited data

Results flagged for a closer look

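Of the 10 chemokines examined in the group of 4 anti-Lair1 tumours, 1 had a tumour far from the others: Ccl4 in anti-Lair1 replicate 1, at 1.91 CPM, against 1.13, 1.12 and 1.09 CPM in replicates 2, 3 and 4. The gap was 0.950 of the group's range, above Dixon's critical value of 0.829 for 4 samples, and chance flags about 1 in 20 such groups.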

How the results depend on the processing

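No paired analysis was possible because the labels give no replicate numbers shared between the groups. The count of genes called over all genes, 0 with edgeR, was 47 with DESeq2 and between 0 and 3 when single libraries were left out. The 3 genes, none of them a chemokine of this set, were called without anti-Lair1 replicate 2. The median log2 fold change of the 10 chemokines was 1.11 with the macrophage level as a covariate, and 0.41 to 0.79 when single libraries were left out. With the macrophage covariate Ccl11 turned to -0.029, so that 9 of the 10 were above 0, and Ccl6 turned to -0.040 without anti-Lair1 replicate 3. Ccl8 ran from 1.47 (muscle covariate) to 2.30 (macrophage covariate), Ccl24 from 1.44 to 2.50 and Ccl12 from 0.45 to 1.15 over 17 alternatives each. Ccl8 kept an unadjusted p under 0.05 in 17 of 17, Ccl24 in 17 and Ccl12 in 13. The number of the 10 with an unadjusted p under 0.05 was 2 to 4, and 4 were separated in the main fit, 3 after thinning and 5 without anti-KLH replicate 1.

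Other genes turned with the muscle covariate (Ccr2 -0.41, Il33 0.40, Ccl22 -0.53, Krt19 -0.019), with the macrophage covariate (Ccr2 -0.35, Il33 0.30, Tnf 0.094, Cx3cr1 -0.050, Col1a1 0.038), or without 1 library. Leaving out single libraries gave -0.040 to 0.25 for Ccl6, -0.62 to 0.016 for Tnf, -0.014 to 0.32 for Krt19, -0.48 to 0.090 for Il33 and -0.34 to 0.12 for Ccl17. The cause was not tested. Few reads limit Ccl3, Ccl4, Ccl11, Ccl12 and Ccl24, with 9 to 83 per library.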
